A study of Homo sapiens with 6 samples.

Results

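The platelet-derived growth factor (PDGF) family was examined through the transcripts of its 4 ligands, PDGFA, PDGFB, PDGFC and PDGFD, its receptors PDGFRA and PDGFRB, and the receptor-like gene PDGFRL. The 7 genes were taken by symbol, and all of them were found among the 16907 gene symbols of the count tables. RNA had been sequenced in LX-2 cells, an immortalized human line derived from hepatic stellate cells, after 72 h of transfection with 20 nM of a small interfering RNA. The siControl group had received a control siRNA and the siOGT group, from another supplier, a pool of siRNAs against OGT, which encodes O-GlcNAc transferase, the sugar-adding enzyme of protein O-GlcNAcylation. Both groups came from this single line, cultured with fetal bovine serum, which itself carries growth factors, and each had 3 libraries. The study's methods describe the replicates as independent experiments and pair libraries of the same number, so siOGT was compared with siControl within replicate numbers.

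PDGF ligands are secreted dimers that bring pairs of receptor tyrosine kinases together at the cell surface, which then phosphorylate each other and recruit adaptors that feed RAS, phosphoinositide 3-kinase and phospholipase C signalling. PDGF-B binds both receptor types, PDGF-A and PDGF-C act mainly through PDGFRA, and PDGF-D acts mainly through PDGFRB. In the injured liver, stellate cells that turn into myofibroblasts raise PDGFRB and answer PDGF-B with proliferation and migration.

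Silencing of OGT was accompanied by lower levels of the transcripts of one ligand and one receptor, PDGFB and PDGFRB. PDGFB fell by 27.3% and PDGFRB by 19.7%, while PDGFA, PDGFC, PDGFD, PDGFRA and PDGFRL did not pass the test. By level per length of exon, PDGFRB and PDGFC were the most abundant members in both groups, and PDGFD was close to the limit of detection. The decreases of PDGFB and PDGFRB passed the test when libraries were compared within replicate numbers, and not when the numbers were ignored.

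Promoter windows from RefSeq (GRCh38.p14) were available for 4 of the 7 genes, PDGFA, PDGFD, PDGFRA and PDGFRB. The windows of both receptor kinases and of PDGFA, the only ligand whose level was higher on average in siOGT, are shown because they differ in composition and in the motifs they hold. Each is the 250 bases before the start of the gene's reference transcript, written 5′ to 3′ on the gene's own strand. PDGFA had 4 windows and PDGFRA 2, and those at their other start sites were left out. Capitals mark motif matches on either strand.
PDGFRB (chr5:150155846-150156095, minus strand): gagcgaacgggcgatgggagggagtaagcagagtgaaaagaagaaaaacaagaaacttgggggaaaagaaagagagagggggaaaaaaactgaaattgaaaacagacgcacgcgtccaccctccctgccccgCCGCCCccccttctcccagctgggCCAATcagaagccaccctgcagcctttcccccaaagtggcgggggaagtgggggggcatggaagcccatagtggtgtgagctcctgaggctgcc
PDGFRA (chr4:54229043-54229292, plus strand): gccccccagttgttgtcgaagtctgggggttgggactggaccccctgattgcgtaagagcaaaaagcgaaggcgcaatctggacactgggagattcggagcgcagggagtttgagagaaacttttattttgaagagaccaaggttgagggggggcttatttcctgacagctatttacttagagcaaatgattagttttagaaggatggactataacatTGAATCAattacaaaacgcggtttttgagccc
PDGFA (chr7:519847-520096, minus strand): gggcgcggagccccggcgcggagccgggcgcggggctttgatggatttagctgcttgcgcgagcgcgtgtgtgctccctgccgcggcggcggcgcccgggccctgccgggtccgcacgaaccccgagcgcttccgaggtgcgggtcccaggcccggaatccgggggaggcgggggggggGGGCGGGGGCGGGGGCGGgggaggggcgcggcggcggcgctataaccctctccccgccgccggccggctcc

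A small set of core promoter and factor motifs was searched on both strands of these windows. The PDGFRB window held 1 CCAAT box (letters CCAAT) and 1 GC box (letters GGGCGG), found in 32% and 42.6% of 35116 RefSeq windows of the same length. For AP-1 a loose pattern was used, TGANTCA with any base at the N. The PDGFRA window held 1 match to it, with A at the N, and 6.57% of all windows held any. In the PDGFA window, 3 GC boxes and 2 matches to the EGR1 motif GCGGGGGCG overlapped in one G-rich stretch, and the EGR1 motif occurred in 4.72% of all windows. None of the 4 windows held the TATA box TATAAA, present in 10.7% of all windows. The TEAD motif GGAATG, present in 11.9% of all windows, was likewise in none of the 4. The share of G and C was 81.6% in PDGFA, 58.4% in PDGFRB and 46.8% in PDGFRA, against a median of 58% over all windows. These matches describe letters only and say nothing of binding.

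Library totals ranged from 25996770 to 27966801 expected counts, and the 7 members together took between 0.0207% and 0.0314% of them. OGT itself had 4737, 3489 and 3383 counts in siControl and 1079, 726 and 782 in siOGT, and its log2 fold change was -2.18 (SE 0.073, edgeR adjusted p = 2.712e-12). Markers of stellate cells and myofibroblasts summed to 8083 to 9737 CPM in siControl (counts scaled by library total and by a factor for composition). In siOGT the sum was 7690 to 9574 CPM. The collagens, VIM and SPARC were high. The myofibroblast marker ACTA2 was low, at 4.83 to 9.69 CPM over both groups, and HAND2 had at most 5 counts. LRAT and DES, which mark the quiescent and contractile cell, had at most 1 and 6 counts. Other markers of this list were not low. Over both groups, TAGLN had 145 to 385 CPM, THY1 187 to 369 CPM and LHX2 56.1 to 70.5 CPM. Hepatocyte markers summed to 6.40 to 9.28 CPM in siControl and 8.18 to 12.6 in siOGT, and ALB had at most 3 counts. Endothelial markers summed to 3.82 to 8.37 and 3.39 to 6.24 CPM. Cholangiocyte markers, chiefly SOX9, summed to 88.6 to 128 and 91.4 to 129 CPM. Of the others on that list, KRT7 had 4.66 to 8.05 CPM, and KRT19 and EPCAM had at most 4 and 3 counts. The leukocyte and macrophage list summed to 131 to 162 and 176 to 208 CPM, nearly all of it CD68, a lysosomal protein also found outside macrophages, and the leukocyte-defining PTPRC had between 9 and 23 counts. The part of these lists in the results below was not tested. In such bulk libraries, fewer cells with a transcript and less of it per cell cannot be told apart.

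The levels of the 7 transcripts in each library are plotted in CPM.

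**Figure D1:**
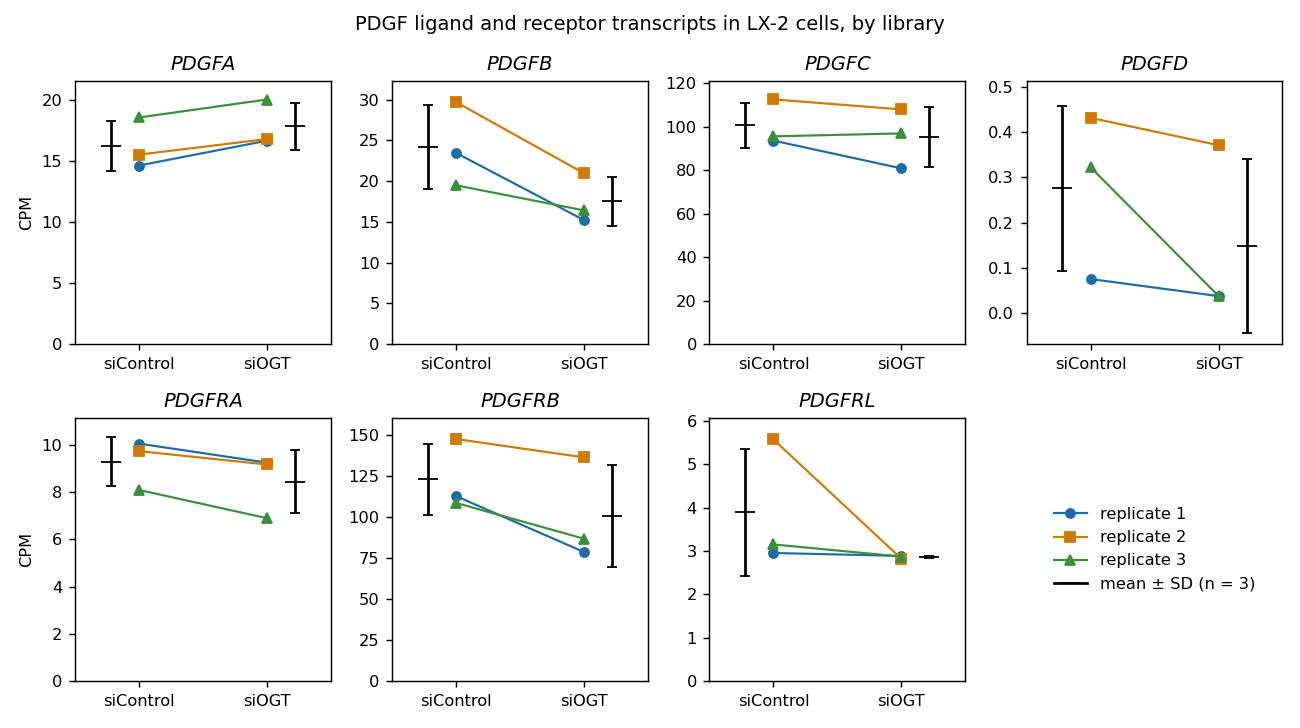
Level of each PDGF transcript (vertical axis, CPM, a separate scale for each gene) in siControl and siOGT libraries. Lines join libraries of the same replicate number, and bars give the mean ± SD of 3 libraries. PDGFB and PDGFRB were lower in siOGT in all 3 pairs although the ranges of the groups overlapped.

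PDGFB encodes the B chain, the strongest PDGF mitogen for stellate cells. The gene is on the minus strand of chromosome 22 (39223359 to 39244982, hg38) and has 7 exons. PDGFB counts were 627, 756 and 544 in siControl and 411, 564 and 440 in siOGT. As CPM, these were 23.5, 29.7 and 19.5 in siControl and 15.2, 21.0 and 16.4 in siOGT, or 24.2 ± 5.15 and 17.5 ± 3.03 (SD, n = 3 each). Each siOGT library lay below the siControl library of its own number, but siOGT replicate 2 lay above siControl replicate 3, so the ranges overlapped. The log2 ratios within pairs were -0.62, -0.50 and -0.25. Across the pairs PDGFB changed by -0.46 on the log2 scale (SE 0.090, 95% confidence interval -0.65 to -0.27, edgeR adjusted p = 0.00123). With the replicate number left out of the model, the fold change was -0.47 and the adjusted p-value 0.2096 in edgeR and 0.1238 in DESeq2.

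PDGFRB encodes the receptor that binds the B and D chains and marks hepatic myofibroblasts. It is transcribed from the minus strand of chromosome 5 (150113839 to 150155872, hg38, 23 exons). PDGFRB counts were 3008, 3751 and 3026 in siControl and 2120, 3665 and 2322 in siOGT. These corresponded to 113, 147 and 108 CPM in siControl and 78.5, 136 and 86.6 CPM in siOGT, or 123 ± 21.4 and 100.4 ± 31.2 (SD, n = 3 each). Replicate 2 was the highest library of both groups, and siOGT replicate 2 exceeded siControl replicates 1 and 3. The log2 ratios within pairs were -0.52, -0.11 and -0.32, so the decrease was smallest in replicate 2. This gave a log2 fold change of -0.32 (SE 0.075, 95% confidence interval -0.47 to -0.16, edgeR adjusted p = 0.004727). Without the replicate number in the model it was -0.29, with an adjusted p-value of 0.4752 in edgeR and 0.4273 in DESeq2. Leaving out replicate 1 gave -0.22 and an adjusted p-value of 0.1488, so the call on PDGFRB also rested on that pair.

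PDGFRA encodes the other receptor kinase, which binds the A, B and C chains. Its gene lies on chromosome 4 (54229280 to 54298245, plus strand, hg38, 23 exons), and an annotated read-through gene on the same strand shares 1533 of its exonic bases. PDGFRA counts were 269, 248 and 226 in siControl and 250, 247 and 185 in siOGT. The means were 9.30 ± 1.05 and 8.44 ± 1.34 CPM (SD, n = 3 each). Each siOGT library was below its siControl partner by a small margin, with log2 ratios of -0.12, -0.086 and -0.23, and the ranges overlapped. The log2 fold change of -0.14 had a 95% confidence interval of -0.38 to 0.091 and did not pass the test (edgeR adjusted p = 0.3832).

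PDGFRL encodes a secreted protein that resembles the extracellular part of the receptors and has no kinase. Its gene lies on chromosome 8 (17576433 to 17644071, plus strand, hg38, 6 exons) and shares 277 exonic bases with MTUS1 on the opposite strand. PDGFRL counts were 79, 142 and 88 in siControl and 78, 76 and 77 in siOGT. The means were 3.90 ± 1.46 and 2.86 ± 0.033 CPM (SD, n = 3 each), and PDGFRL was the only member whose CPM ranges did not overlap between the groups, as was the case for 23.9% of all genes tested. The separation was narrow in replicates 1 and 3, and siControl replicate 2 stood apart, with an exact Poisson interval of 120 to 167 counts (95%, counting error only). PDGFRL changed by -0.40 on the log2 scale without passing the test (95% confidence interval -0.84 to 0.033, edgeR adjusted p = 0.1688). Without replicate 2 it was -0.087.

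PDGFA encodes the A chain, which signals through PDGFRA. The gene has 6 exons and is on the minus strand of chromosome 7 (497258 to 520296, hg38). PDGFA counts were 391, 395 and 518 in siControl and 450, 452 and 537 in siOGT. The means were 16.2 ± 2.06 and 17.8 ± 1.91 CPM (SD, n = 3 each). Every siOGT library was above its siControl partner, with log2 ratios of 0.19, 0.11 and 0.11, while replicate 3 was the highest of both groups and the ranges overlapped. The log2 fold change of 0.14 (95% confidence interval -0.047 to 0.32) did not pass the test (edgeR adjusted p = 0.2787).

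PDGFC encodes a ligand secreted in latent form, which needs cleavage of its CUB domain by proteases such as tissue plasminogen activator. Its gene lies on chromosome 4 (156760454 to 156971799, minus strand, hg38, 6 exons). PDGFC counts were 2504, 2867 and 2669 in siControl and 2185, 2907 and 2600 in siOGT. The means were 101 ± 10.4 and 95.3 ± 13.6 CPM (SD, n = 3 each). PDGFC was the only member whose pairs went both ways, being lower in replicates 1 and 2 and slightly higher in replicate 3. The log2 fold change was -0.083 with an edgeR adjusted p-value of 0.4021 and a 95% confidence interval of -0.22 to 0.058. Leaving out a replicate moved it to between -0.14 and -0.022, still not called.

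PDGFD encodes the other latent ligand, which is activated by urokinase and acts mainly on PDGFRB. Its gene lies on chromosome 11 (103907189 to 104164379, minus strand, hg38, 7 exons) and shares 193 exonic bases with DDI1 on the opposite strand. PDGFD had 2, 11 and 9 counts in siControl and 1, 10 and 1 in siOGT. At this depth neither the level nor a change could be measured with useful precision, since a count of 1 alone allows up to 5.57 counts (exact Poisson, 95%, counting error only). The log2 fold change of -1.02 had a 95% confidence interval of -2.71 to 0.67 (edgeR adjusted p = 0.3886), and DESeq2 gave PDGFD no adjusted p-value. Leaving out a replicate gave values from -2.22 to -0.35.

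**Figure D2:**
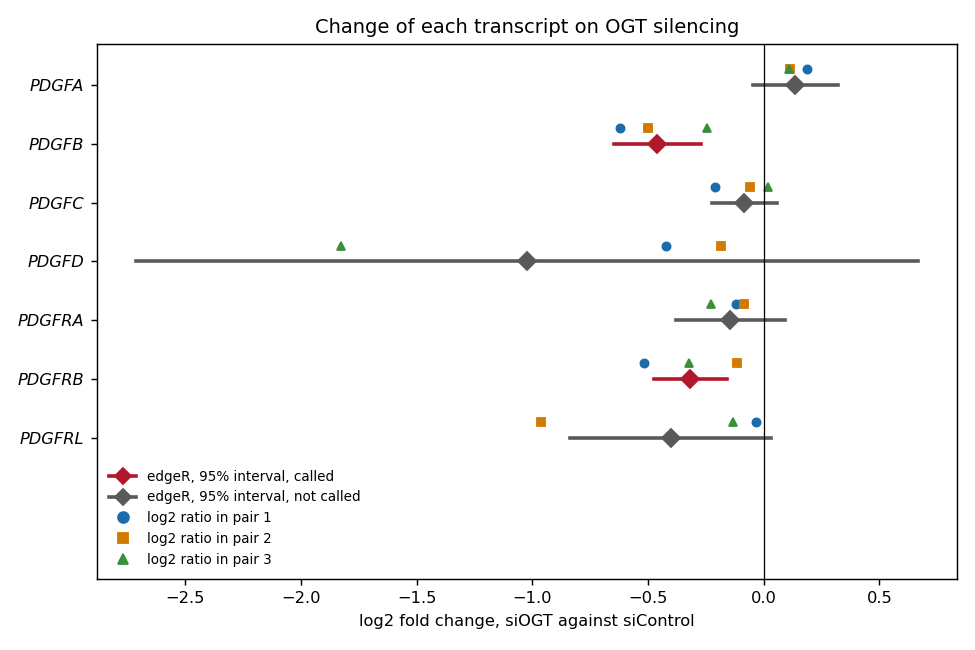
Log2 fold change of each PDGF transcript, siOGT against siControl (horizontal axis), with the 95% confidence interval from edgeR as a bar and the log2 ratio within each of 3 pairs as small symbols. Only the intervals of PDGFB (-0.65 to -0.27) and PDGFRB (-0.47 to -0.16) belong to called genes, and that of PDGFD is the widest.

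A gene was called where its adjusted p-value was at most 0.05, and 2 of the 7 members were, both of them lower in siOGT. The same rule called 25.4% of the 14853 genes tested, and called 12.7% lower. At this number of members, 2 calls in 7 are not read as a result about the family. Of the 7 log2 fold changes, 6 were below 0, as were 7275 of the 14853 genes tested. The median over the members was -0.32, the value of PDGFRB, against 0.0068 over all genes. All members except PDGFC moved in the same direction in the 3 pairs, that is, 6 of 7, as did 54% of all genes. When the replicate number was left out, edgeR called 0.875% of all genes and 0 of the 7 members. DESeq2 without the replicate number also called 0 members, against 6.77% of the genes to which it gave an adjusted p-value. At an unadjusted p-value under 0.05, the model without the block kept 2691 of all genes in edgeR, 1 of them a member (PDGFB), and DESeq2 kept 2562 genes, with PDGFB again the 1 member. With the replicate number, DESeq2 called PDGFB and PDGFRB and 19.2% of the genes with an adjusted p-value.

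Levels of different genes were compared per length, in TPM, that is, counts divided by the length of each gene's annotated exons and scaled to the same total in every library. In siControl, PDGFRB had 80.9 ± 11.9 TPM and PDGFC 79.0 ± 5.93 TPM, and the ranges of these neighbours in the order overlapped. PDGFB followed with 28.5 ± 5.42, PDGFA with 16.7 ± 2.17, PDGFRL with 7.54 ± 2.60, PDGFRA with 4.59 ± 0.54 and PDGFD with 0.302 ± 0.195 TPM (SD, n = 3 each), with no overlap between neighbours. In siOGT, PDGFC came first with 75.9 ± 8.72 TPM and PDGFRB next with 67.1 ± 19.4 TPM, again overlapping. PDGFB, at 21.0 ± 3.15 TPM, and PDGFA, at 18.6 ± 1.78 TPM, overlapped in siOGT although they had been separate in siControl. The order between close neighbours depended on the length used. With the longest transcript in place of the exon union, PDGFC stood above PDGFRB in siControl too, PDGFB and PDGFA overlapped there at 21.3 and 19.4 TPM, and in siOGT PDGFA stood above PDGFB, at 21.7 against 15.7 TPM. PDGFRL and PDGFRA, separate in both groups by the exon union, overlapped in both by the longest transcript.

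**Figure D3:**
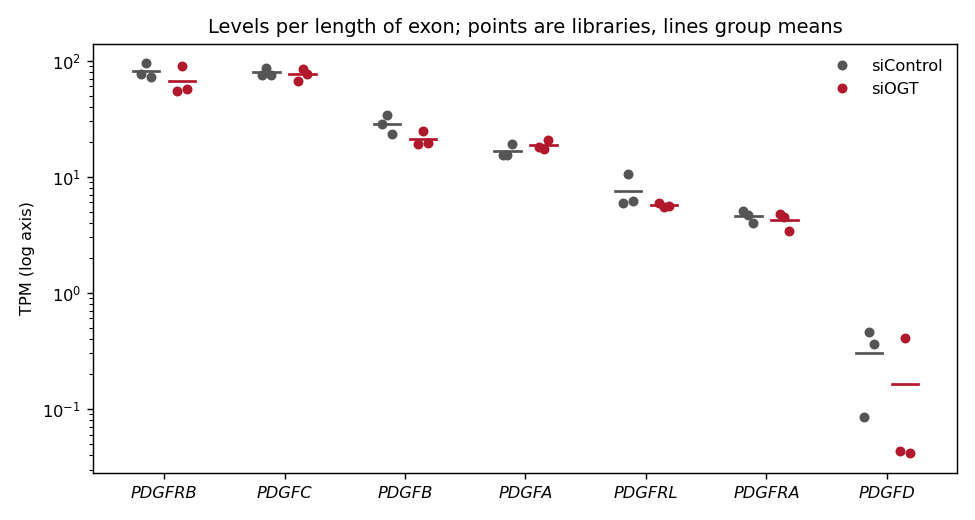
Level per length of exon of the 7 PDGF transcripts in TPM (vertical axis, logarithmic), with siControl in grey and siOGT in red. Points are libraries and lines are group means, and PDGFRB and PDGFC lead in both groups while PDGFD stays below 1 TPM.

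The balance between members within a library was described without a test. The level of PDGFRB per length exceeded that of PDGFRA 14.96, 20.2 and 17.9 times in siControl and 11.3, 19.9 and 16.8 times in siOGT. This ratio was lower in siOGT in every pair, but the ranges of the groups overlapped. PDGFB counts divided by PDGFC counts gave 0.250, 0.264 and 0.204 in siControl and 0.188, 0.194 and 0.169 in siOGT. For this pair of ligands the groups did not overlap. How often such ratios separate over all genes was not measured. The groups overlapped for PDGFB over PDGFA, PDGFB over PDGFRB, and both receptor kinases over the ligands. These ratios were lower in siOGT in 3, 2 and 2 of the 3 pairs. Among ligand transcripts, PDGFB made up 22.8 ± 2.87% of the summed TPM in siControl and 18.1 ± 1.38% in siOGT, and PDGFC 63.5 ± 0.39% and 65.6 ± 1.14% (SD, n = 3 each). PDGFA made up between 11.4% and 16.2% in siControl libraries and between 13.6% and 17.7% in siOGT libraries.

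Genes whose level varied most like PDGFRB and PDGFB over the 6 libraries were sought among the 12372 genes averaging 1 CPM or more. For PDGFRB, these were ALPK1, SLC7A5 and COL1A2 (Pearson r of log2 CPM 0.993, 0.992 and 0.992). For PDGFB, they were GRIN1, COL1A1 and NRM (0.997, 0.997 and 0.993). GRIN1 averaged 1.31 CPM, close to the lower limit, so its value rests on few counts. Among the members, PDGFRB had r = 0.90 with PDGFB, 0.89 with PDGFC and 0.87 with PDGFD. The value for PDGFD rests on 1 to 11 counts per library. The strongest relation was between PDGFA and PDGFRA (-0.97). COL1A1 and COL1A2, the chains of type I collagen, fell by 0.39 and 0.32 on the log2 scale in edgeR, and both were, like PDGFRB, highest in replicate 2 of each group. In DESeq2 with the block, COL1A2 missed the threshold (adjusted p = 0.1648), and neither gene was called without the block (edgeR adjusted p = 0.2242 for COL1A1 and 0.5658 for COL1A2). All these correlations share the same 6 libraries and include the difference between the groups.

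**Figure D4:**
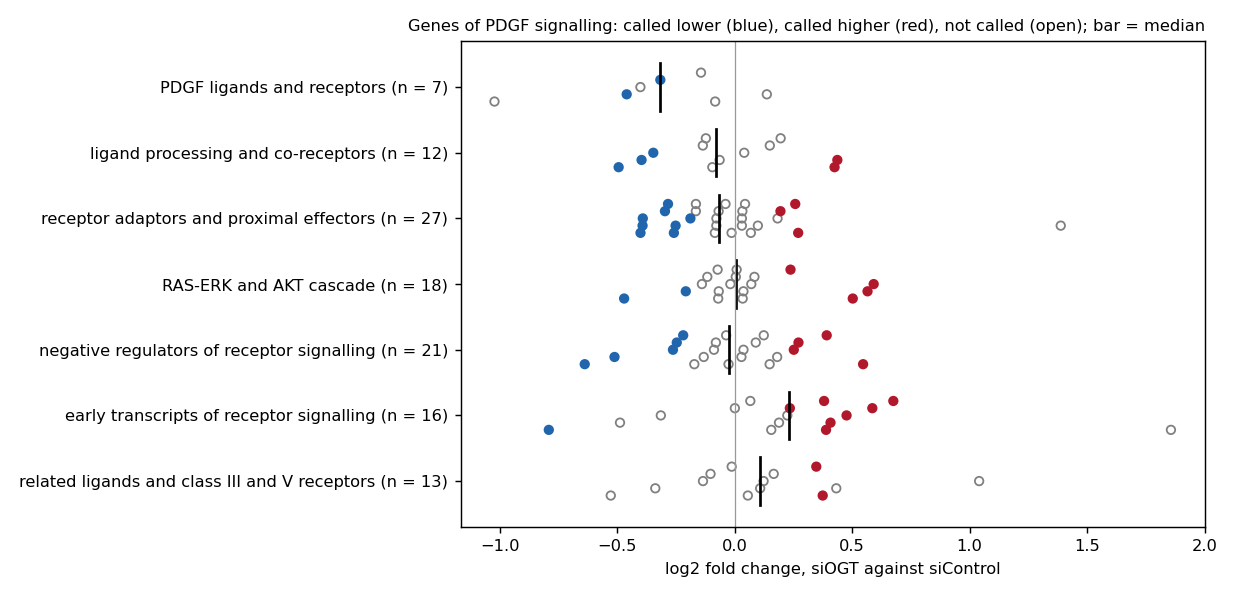
Log2 fold change, siOGT against siControl (horizontal axis), of the 7 PDGF members and of 6 lists of genes around PDGF signalling, with n the number tested in each. Filled points are genes called lower (blue) or higher (red), open points were not called, and bars are medians, which lie between -0.32 for the members and 0.23 for the early transcripts.

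Around the members, 107 of 112 listed genes of PDGF signalling were tested, and 41 were called, 22 higher and 19 lower. That is 38.3%, against 25.4% of all genes, with a median log2 fold change of 0.03. The 2 shares come from genes of unlike level, since 9 of the 107 averaged below 1 CPM, against 2480 of the 14853. What the difference in shares owes to level was not tested. DESeq2 with the block called 29 of the listed genes, and 19.2% of all genes with an adjusted p-value. Without the replicate number in the model, edgeR called 2 of the listed genes, NRAS among them.

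Among 12 tested genes that process the ligands or assist the receptors, 2 were called higher and 3 lower, with a median of -0.080. LRP1, an endocytic receptor that binds PDGFRB, fell from 407 ± 17.9 to 291 ± 48.8 CPM (log2 fold change -0.49). SPARC, a matrix protein that binds PDGF-B, rose from 1466 ± 149 to 2007 ± 430 CPM (0.44). PCSK7, a proprotein convertase, rose from 54.6 ± 2.03 to 73.3 ± 2.82 CPM (0.42). PLAT and PLAU, which encode the activators of latent PDGF-C and PDGF-D and were singled out after their values were seen, fell by 0.35 and 0.40 on the log2 scale (edgeR adjusted p = 0.001104 and 0.001624). FURIN, which cleaves the A and B chains, had 252 ± 19.5 and 260 ± 31.2 CPM.

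Of 27 tested adaptors and proximal effectors of the receptors, 3 were called higher and 8 lower, with a median of -0.069. SHC1, an adaptor that links receptors to RAS, fell from 252 ± 21.4 to 191 ± 23.7 CPM (-0.40). The transcription factor gene STAT5B fell by 0.30 on the log2 scale. In the RAS-ERK and AKT cascade, 4 of 18 genes were called higher and 2 lower, with a median of 0.0062. The RAS gene NRAS rose from 71.6 ± 6.56 to 106 ± 7.67 CPM (0.57) and the kinase gene BRAF from 49.5 ± 11.7 to 70.5 ± 18.9 CPM (0.50). The kinase gene AKT1 fell from 160 ± 27.4 to 115 ± 19.8 CPM (-0.47). PDPK1, whose product phosphorylates AKT1, rose by 0.24 on the log2 scale.

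Of 21 negative regulators, 4 were called higher and 5 lower by edgeR, with a median of -0.026, but DESeq2 with the same block called 2 of the 21. SOCS1, a feedback inhibitor, fell from 14.0 ± 4.21 to 9.90 ± 3.76 CPM (-0.51). The feedback inhibitors SPRY1 (-0.64) and SOCS2 (0.55), called by edgeR, had adjusted p-values of 0.1459 and 0.09704 in DESeq2 with the block. PTPN1, a phosphatase that acts on receptor tyrosine kinases, rose from 129 ± 7.81 to 169 ± 12.0 CPM (0.39). Likewise called by edgeR only were the ubiquitin ligase CBLB (0.27) and the feedback inhibitor SPRY2 (0.25), with DESeq2 adjusted p-values of 0.0683 and 0.0651. Among 16 transcripts that growth factor receptors induce early, 7 were called higher and 1 lower, with a median of 0.23. EGR1, an immediate early transcription factor, was the one that fell, from 31.2 ± 17.2 to 17.2 ± 5.996 CPM (-0.79). ATF3 (0.68), SPHK1 (0.59), FOSL1 (0.48), DUSP1 (0.39) and HBEGF (0.38) rose. Of 13 tested related ligands and receptors of the same and the neighbouring receptor classes, 2 were called and both rose, with a median of 0.11. These were VEGFA, from 17.1 ± 2.04 to 22.2 ± 1.59 CPM (0.37), and CSF1, from 90.4 ± 6.35 to 115 ± 2.11 CPM (0.35).

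How the calls on PDGFB and PDGFRB held under other settings is plotted for both genes.

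**Figure D5:**
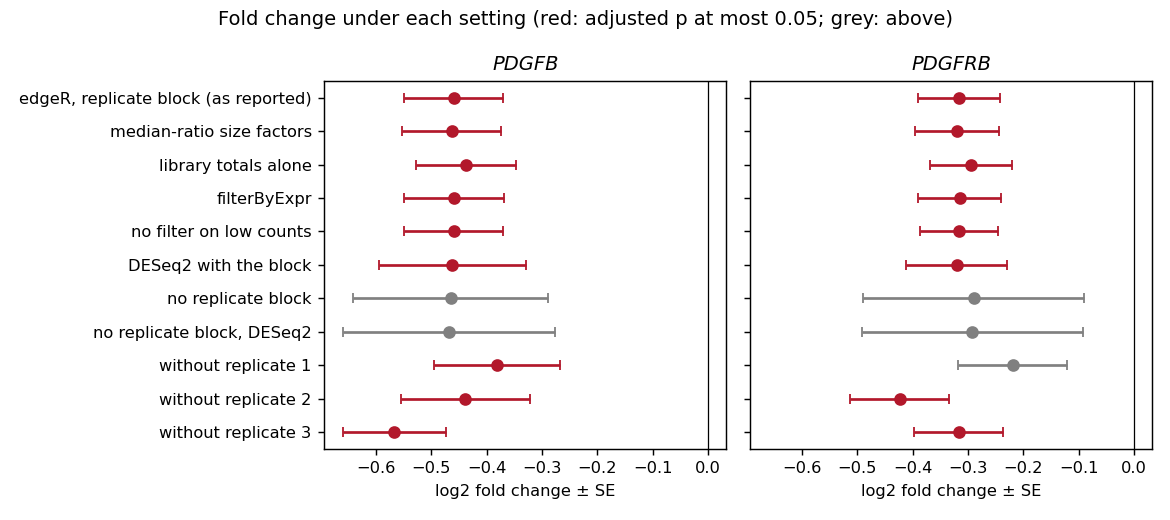
Log2 fold change ± SE (horizontal axis) of PDGFB and PDGFRB, siOGT against siControl, under the reported setting and 10 alternatives. Both stay below 0 in each, at -0.57 to -0.38 for PDGFB and -0.42 to -0.22 for PDGFRB, and grey points mark settings with an adjusted p-value above 0.05.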

How the data were processed

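RNA of 3 siControl and 3 siOGT libraries was measured by stranded, oligo-dT enriched paired-end sequencing. Per the submitters' processing notes and the study's methods, reads were aligned to hg38 with Bowtie2 2.3.5.1 and counted strand-specifically with RSEM 1.3.1. The deposited values are RSEM expected counts per gene, estimated counts in which the authors' counting divides a read that matches several genes, and they were not normalized. All 42 values of the 7 members were whole numbers, with no fraction at the precision deposited. The methods name GENCODE, but some symbols have the RefSeq form, so the exact gene models are not known. A deposited table of the authors' own comparison, holding mean levels, fold changes, statistics and p-values from DESeq2 1.36.0, was not used.

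Rounded counts were kept for the 14853 genes totalling 10 or more. They were tested with edgeR 4.0.16 in R 4.3.3 (quasi-likelihood F test, two-sided, TMM scaling). Replicate number entered the model as a block. Adjustment of p-values was over all genes tested (Benjamini-Hochberg, called at 0.05 or less). Fold changes of named genes other than members come from the same fit. Log2 ratios within pairs use a prior count of 2. TPM used GENCODE 44 lengths, found for 15891 of 16907 symbols. On simulated data for siOGT against siControl (14723 genes), 83% of changes of 0.5 and 97% of changes of 1 on the log2 scale were recovered. Only genes averaging 1 CPM or more were changed, and each change was the same in all pairs. The simulated spread between libraries followed the level of a gene and not the gene's own spread. The rates therefore do not cover PDGFD, smaller changes, changes that differ between pairs, or genes that vary more than others of their level. Libraries of the same number deviated together from their group means (correlations of 0.69, 0.53 and 0.33 across 12373 genes), and the study's methods pair them.

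The members and the pathway lists were chosen with earlier results of these data known. Beside OGT and the members, genes were named by rule, from each list the called genes with a log2 fold change of at least 0.5 in size and up to 3 further called genes with the lowest adjusted p-values. Some genes that this rule names are not reported here. Alternatives were other scalings and filters, DESeq2 1.42.0, no block, each replicate left out, and another gene length.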

Additional observations from a re-analysis of the deposited data

How the results depend on the processing

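PDGFB and PDGFRB stayed below 0 under all 10 alternatives. With no replicate block, PDGFB was -0.47 (adjusted p = 0.2096 in edgeR, 0.1238 in DESeq2) and PDGFRB -0.29 (0.4752 and 0.4273), so neither was called, and the members called went from 2 to 0 with both tools. Pathway genes called went from 41 to 2 (11 with DESeq2), and all genes called from 3766 to 130 (849 with DESeq2). The block changed no call on the other 5 members. DESeq2 with the block called 2415 genes, 29 pathway genes and the same 2 members. Leaving out 1 replicate gave 1803 to 3439 genes called, 24 to 38 pathway genes and 1 to 2 members, with -0.57 to -0.38 for PDGFB and -0.42 to -0.22 for PDGFRB. Without replicate 1, PDGFRB was -0.22 (adjusted p = 0.1488). Scaling by library totals alone gave 2113 genes higher and 1614 lower, against 1885 and 1881 as reported, and left both members called. The mean PDGFRB to PDGFRA ratio per length in siControl moved from 17.7 to 14.8 with the longest transcript. PDGFA, PDGFC, PDGFD, PDGFRA and PDGFRL were called under no alternative that gave an adjusted p-value, and none changed sign. PDGFD did not pass the stricter filter on low counts (filterByExpr), and its 1 to 11 counts limit any statement on it. The cause of the shifts was not tested. Leaving out a replicate also leaves fewer samples in each group.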
